A study of Homo sapiens with 8 samples.

Results

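Interferon-induced genes are described here through 10 members: IFIT1, IFIT2, IFIT3, HERC5, RSAD2, IFIH1, XAF1, TRIM22, GBP4 and GBP5. Each was found by its gene symbol in the probe annotation and had 1 probe set, out of 14884 genes with a symbol on the array. The 10 genes were chosen by name with their levels and differences on these same arrays known, so their values and fitted differences are given as a description, with no call or p for any member. All 10 passed the filter on dim genes, a mean over the 8 arrays at or above the 40th percentile (log2 5.18), and were among the 8930 genes fitted.

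Total RNA was measured in HPB-ALL and CCRF-CEM, 2 established human lines of T cell acute lymphoblastic leukaemia, with 4 arrays per line. In each line 1 array held cells transduced with the short hairpin RNA shTOX-1 against TOX, 1 cells with the hairpin shTOX-2, 1 cells with a scramble hairpin and 1 untransduced cells. The transduced cells, scramble included, had been through spinoculation and puromycin selection and were then kept for at least 2 weeks. Virus and selection come together, so their effects cannot be told apart. TOX is a nuclear DNA-binding protein of developing T cells, and its signal relative to scramble was 74.2% (shTOX-1) and 28% (shTOX-2) in HPB-ALL, and 77% and 44.6% in CCRF-CEM. Separate cultures are not stated for the arrays, and each line and construct has 1 array. The spread between shTOX arrays therefore holds the difference between the hairpins as well as that between preparations.

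Interferons are secreted proteins that cells release on sensing foreign nucleic acid. Type I interferons act through the receptor chains IFNAR1 and IFNAR2 and the kinases JAK1 and TYK2, and transcription factors including STAT2 and IRF9 then bind interferon-stimulated response elements (ISREs) near target genes; interferon gamma acts through gamma-activated sites. The IFIT proteins bind viral RNA, RSAD2 (viperin) makes an antiviral nucleotide analogue, HERC5 attaches the ubiquitin-like protein ISG15 to new proteins, and IFIH1 (MDA5) senses long double-stranded RNA. GBP4 and GBP5 are guanylate-binding GTPases typical of the interferon gamma response, TRIM22 is an antiviral ubiquitin ligase and XAF1 is a pro-apoptotic zinc finger protein.

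The upstream sequences below show where the response element lies in some of the members that stood higher in shTOX than in both control arrays in at least 1 line. The sequences shown were picked for holding a whole match, so they do not tie the element to a higher level. XAF1 and GBP4 met the same rule and are not shown. XAF1 had no match, and the match of GBP4 ran past the start. Each sequence is the 200 bases before a RefSeq start (GRCh38.p14), written 5′ to 3′ on the strand of the gene, and capitals mark the core of the element.
IFIT1, chr10:89392423-89392622, plus strand: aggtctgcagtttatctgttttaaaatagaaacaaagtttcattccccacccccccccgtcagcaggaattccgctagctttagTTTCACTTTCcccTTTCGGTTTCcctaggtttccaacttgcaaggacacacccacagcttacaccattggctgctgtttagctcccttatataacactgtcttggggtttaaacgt
IFIT3, chr10:89332329-89332528, plus strand: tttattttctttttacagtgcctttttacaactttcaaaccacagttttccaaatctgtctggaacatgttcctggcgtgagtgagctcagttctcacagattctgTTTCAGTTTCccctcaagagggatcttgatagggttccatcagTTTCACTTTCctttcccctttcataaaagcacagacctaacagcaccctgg
HERC5, chr4:88456919-88457118, plus strand: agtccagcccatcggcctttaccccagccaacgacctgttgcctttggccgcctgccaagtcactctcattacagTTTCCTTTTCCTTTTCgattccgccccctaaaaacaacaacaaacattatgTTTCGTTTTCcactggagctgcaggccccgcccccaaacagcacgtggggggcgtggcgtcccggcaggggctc
RSAD2, chr2:6877577-6877776, plus strand: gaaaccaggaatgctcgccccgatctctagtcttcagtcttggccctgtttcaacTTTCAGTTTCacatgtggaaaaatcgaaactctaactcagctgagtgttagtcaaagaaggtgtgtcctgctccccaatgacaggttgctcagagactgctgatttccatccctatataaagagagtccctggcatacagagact
IFIH1, chr2:162318685-162318884, minus strand: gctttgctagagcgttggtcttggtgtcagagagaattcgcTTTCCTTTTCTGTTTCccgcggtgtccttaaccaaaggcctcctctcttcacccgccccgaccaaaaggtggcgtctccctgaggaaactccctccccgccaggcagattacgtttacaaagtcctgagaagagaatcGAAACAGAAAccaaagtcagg
The core searched was GAAANNGAAA on both strands, which reads TTTCNNTTTC on the other, and overlapping matches were kept. HERC5 held an overlapping pair and a further match, and IFIH1 held an overlapping pair far from the start and a match close to it. In windows from 250 bases before to 50 bases after a start, 1255 of 35116 (3.57%) held the core. RefSeq windows were at hand for 7 of the members, 10 windows in all, and 7 of these held it. Both XAF1 windows and the other RSAD2 window had no match. The gamma-activated site TTCNNNGAA, which is its own reverse complement, was in 2689 of the 35116 windows (7.66%) and in 0 of the 10, GBP4 included. A match is a description of the letters, not of binding.

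The 3 IFIT genes, neighbours on chromosome 10, were bright in HPB-ALL and dim in CCRF-CEM. IFIT1 stood at log2 6.91, 7.24, 6.80 and 5.20 in the HPB-ALL arrays of shTOX-1, shTOX-2, scramble and untransduced cells, and at 4.12, 3.95, 4.21 and 3.65 in CCRF-CEM in the same order of constructs. IFIT2 stood at 7.42, 8.02, 7.31 and 6.47 in HPB-ALL, and at 4.24, 3.69, 3.55 and 4.0 in CCRF-CEM. IFIT3 stood at 8.78, 9.17, 8.19 and 7.30 in HPB-ALL, and at 4.77, 4.39, 4.44 and 3.84 in CCRF-CEM. In HPB-ALL both shTOX arrays lay above both controls for all 3 genes, and the untransduced array was the lowest of the 4. In CCRF-CEM every value of the 3 genes was below the filter level of 5.18, and the shTOX and control arrays overlapped. The genes passed the filter through HPB-ALL, IFIT1 narrowly with a mean of 5.26. In bulk RNA, fewer cells with a transcript and less of it per cell cannot be told apart.

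For the 3 IFIT genes in HPB-ALL, the shTOX minus scramble difference was smaller than the scramble minus untransduced difference. Relative to untransduced cells, scramble cells were 3.04-fold higher for IFIT1, 1.79-fold for IFIT2 and 1.85-fold for IFIT3. On the log2 scale the shTOX mean exceeded scramble by 0.27 for IFIT1, 0.41 for IFIT2 and 0.79 for IFIT3. With shTOX-1 IFIT1 and IFIT2 were only 0.11 above scramble, whereas with shTOX-2 they were 0.44 and 0.71 above it. The hairpins thus differed by 0.33 for IFIT1 and 0.60 for IFIT2 (shTOX-2 minus shTOX-1), and neither has a repeat array by which to judge that gap.

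**Figure D1:**
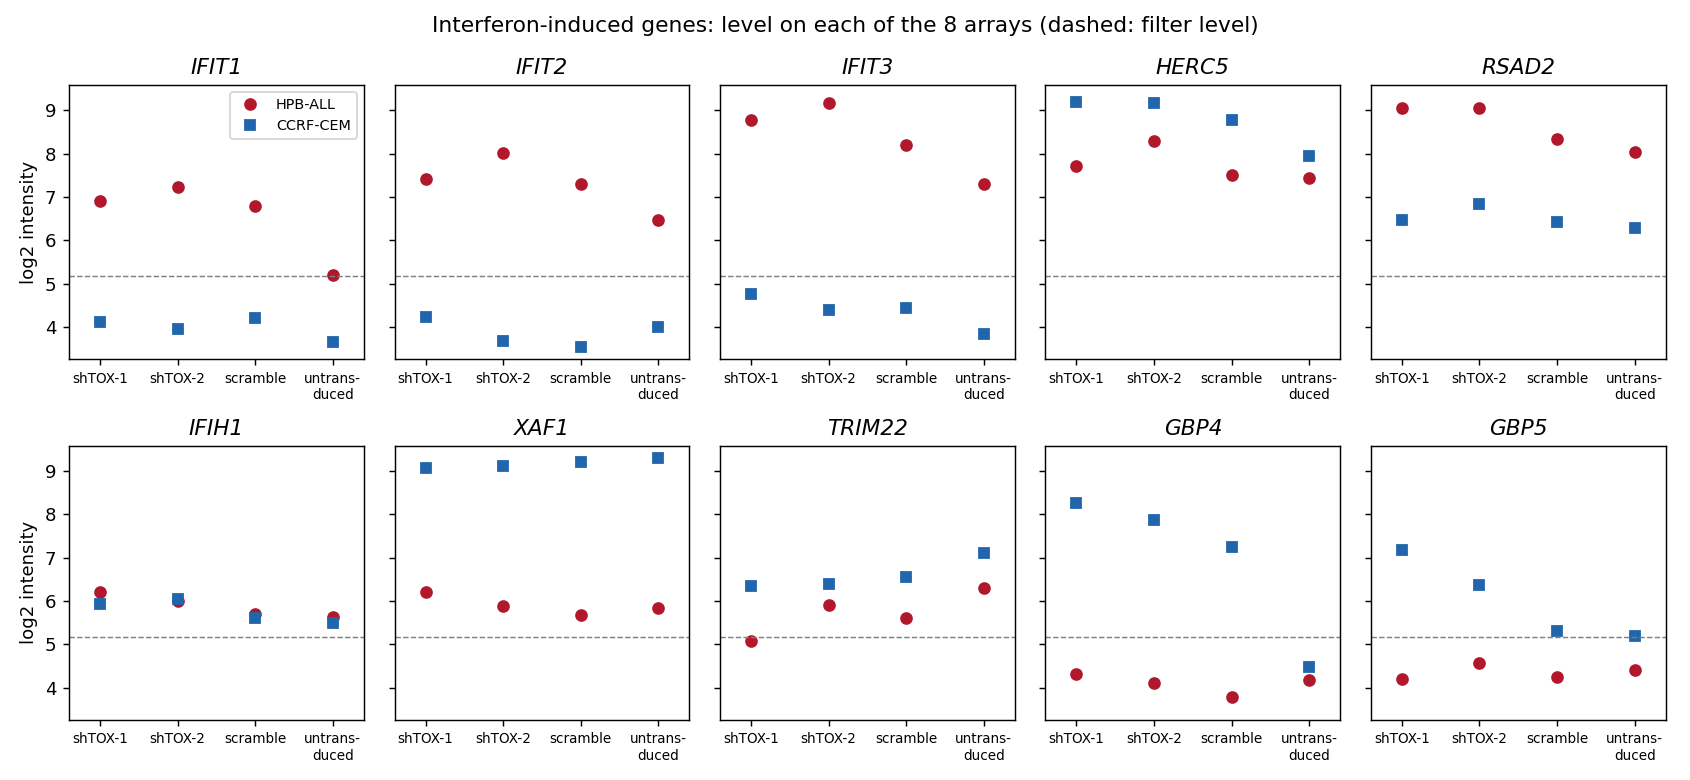
Log2 intensity (vertical axis) of the 10 interferon-induced genes on each of the 8 arrays, by construct (horizontal axis), with HPB-ALL as red circles and CCRF-CEM as blue squares; each point is 1 array and the dashed line is the filter level of 5.18. The IFIT genes are bright in HPB-ALL alone. GBP4 stands at 4.48 in untransduced CCRF-CEM cells against 7.26 to 8.27 in the transduced ones. GBP5 is bright in CCRF-CEM with the TOX hairpins and close to the dashed line in the controls, and both genes are dim in HPB-ALL.

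HERC5 and RSAD2 were well above the filter level in both lines. HERC5, on chromosome 4, stood at 7.71, 8.30, 7.52 and 7.43 in HPB-ALL with shTOX-1, shTOX-2, scramble and no transduction, and at 9.19, 9.18, 8.78 and 7.95 in CCRF-CEM. RSAD2, on chromosome 2, stood at 9.06, 9.05, 8.34 and 8.05 in HPB-ALL, and at 6.47, 6.85, 6.43 and 6.29 in CCRF-CEM. Both shTOX arrays lay above both controls for both genes and in both lines, although RSAD2 in CCRF-CEM with shTOX-1 was only 0.04 above scramble. Relative to the mean of the controls, HERC5 was 1.45-fold higher in HPB-ALL and 1.77-fold in CCRF-CEM, and RSAD2 1.81-fold and 1.23-fold. HERC5 in scramble cells exceeded untransduced cells by 0.09 in HPB-ALL and by 0.82 in CCRF-CEM.

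IFIH1, the sensor among the members, had the smallest standard error in every comparison. It stood at 6.20, 6.01, 5.71 and 5.63 in HPB-ALL, and at 5.93, 6.05, 5.62 and 5.49 in CCRF-CEM. Both shTOX arrays were above both controls in each line, by a mean of 0.44 in HPB-ALL and 0.44 in CCRF-CEM, or 1.36-fold and 1.35-fold. Scramble exceeded untransduced cells by 0.08 in HPB-ALL and 0.13 in CCRF-CEM, so the larger step of IFIH1 lay between scramble and shTOX cells. The levels of IFIH1 in the lines overlapped, with means of 5.89 ± 0.27 in HPB-ALL and 5.77 ± 0.26 in CCRF-CEM (SD over the 4 arrays of a line, constructs included).

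XAF1 and TRIM22 did not share this pattern. XAF1, on chromosome 17, stood at 6.22, 5.89, 5.68 and 5.84 in HPB-ALL, and at 9.07, 9.13, 9.20 and 9.30 in CCRF-CEM. TRIM22, on chromosome 11, stood at 5.07, 5.92, 5.61 and 6.30 in HPB-ALL, and at 6.36, 6.40, 6.55 and 7.12 in CCRF-CEM. For XAF1 both shTOX arrays lay above the controls in HPB-ALL, by 0.29 on average, and below them in CCRF-CEM, by a difference of -0.15. TRIM22 was lower in all 3 transduced arrays than in untransduced cells in both lines, with scramble minus untransduced at -0.69 in HPB-ALL and -0.58 in CCRF-CEM. Its shTOX values lay on both sides of scramble in HPB-ALL and were 0.19 and 0.15 below it in CCRF-CEM.

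GBP4 and GBP5, neighbours on chromosome 1, were dim in HPB-ALL and bright in CCRF-CEM, the reverse of the IFIT genes. GBP4 stood at 4.33, 4.12, 3.79 and 4.18 in HPB-ALL, and at 8.27, 7.88, 7.26 and 4.48 in CCRF-CEM. GBP5 stood at 4.20, 4.57, 4.25 and 4.42 in HPB-ALL, and at 7.18, 6.38, 5.32 and 5.20 in CCRF-CEM. All HPB-ALL values of both genes were below the filter level, and the arrays overlapped there. In CCRF-CEM both shTOX arrays were above both controls. GBP4 in CCRF-CEM had the widest range of log2 values of any member within a line, with shTOX cells 3.59 and scramble cells 2.78 above untransduced cells. The untransduced value lay below the filter level and near the dim HPB-ALL values, so no fold is given for these differences. GBP5 differed in which step was large: scramble cells were 1.09-fold above untransduced cells, and shTOX cells were 2.99-fold above them. In CCRF-CEM shTOX-1 exceeded shTOX-2 for both genes, by 0.38 for GBP4 and by 0.80 for GBP5, although shTOX-1 left more TOX signal. GBP5 passed the filter with a mean of 5.19.

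**Figure D2:**
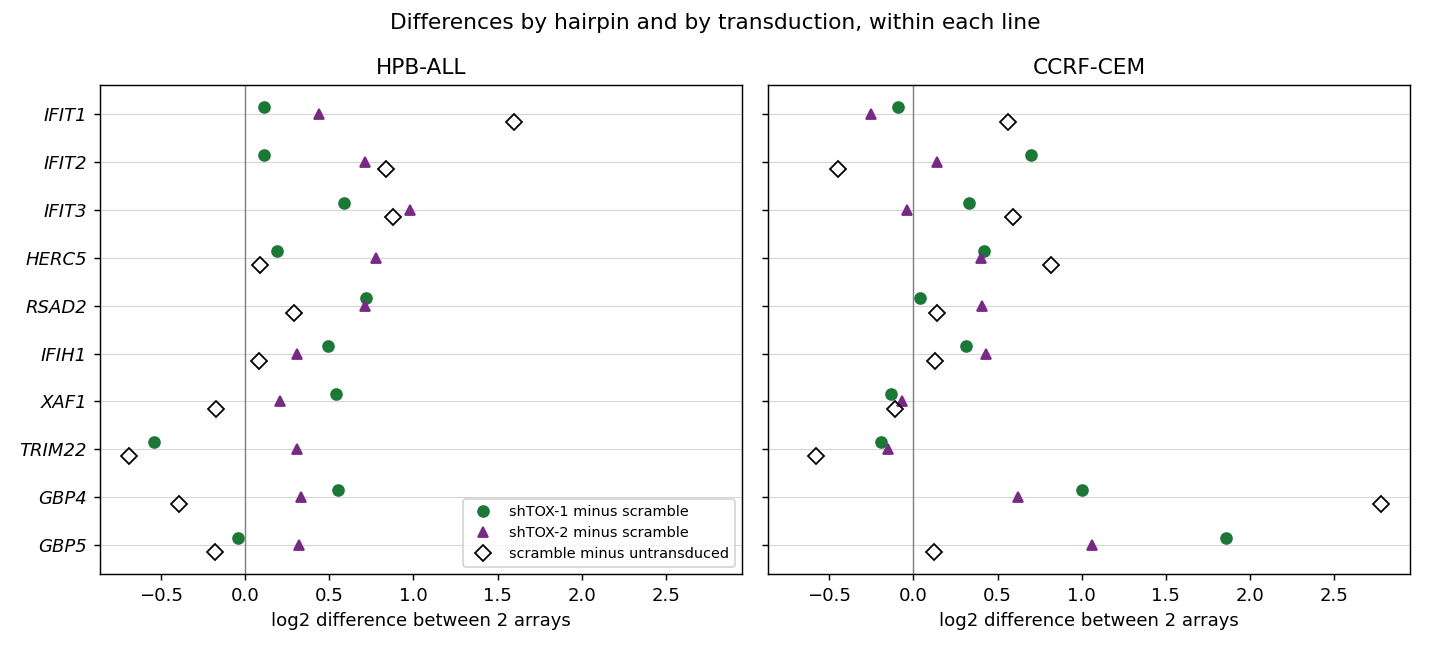
Log2 difference between pairs of arrays (horizontal axis) for each member (vertical axis), with HPB-ALL on the left and CCRF-CEM on the right; filled circles are shTOX-1 minus scramble, triangles shTOX-2 minus scramble and open diamonds scramble minus untransduced. The diamond lies far to the right for GBP4 in CCRF-CEM (2.78) and IFIT1 in HPB-ALL (1.60), while GBP5 in CCRF-CEM has its large differences (1.86 and 1.06) with the TOX hairpins.

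Across both lines and all constructs, the fitted shTOX minus control differences were positive for 9 of the 10 members, TRIM22 being the exception, with a median of 0.59 against 0.03 over all 8930 genes. The estimates (± SE, from limma) were 1.22 ± 0.55 for GBP4, 0.83 ± 0.25 for IFIT3, 0.78 ± 0.29 for GBP5, 0.68 ± 0.19 for HERC5 and 0.59 ± 0.33 for IFIT1. They were 0.58 ± 0.15 for RSAD2, 0.51 ± 0.24 for IFIT2, 0.44 ± 0.11 for IFIH1, 0.07 ± 0.14 for XAF1 and -0.46 ± 0.22 for TRIM22. In limma 0 of all 8930 genes (0.0%) were called at an adjusted p under 0.05, although 1277 genes had an unadjusted p under 0.05. Both shTOX arrays exceeded both controls for 7 members in HPB-ALL, against 24.5% of all genes, and for 5 in CCRF-CEM, against 22.3%. HERC5, RSAD2 and IFIH1 did so in both lines, as did 6.36% of all genes. Both shTOX arrays were below both controls for 0 members in HPB-ALL (16.3% of all genes) and for 2 in CCRF-CEM, XAF1 and TRIM22 (20.8%). The members were chosen knowing this and the following contrasts, and nothing is read from such counts.

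Against scramble cells, which were transduced and selected too, the differences were smaller for most members. GBP5 differed by 0.80 ± 0.36, GBP4 by 0.62 ± 0.61, IFIT3 by 0.47 ± 0.23, RSAD2 by 0.47 ± 0.18 and HERC5 by 0.45 ± 0.20. IFIT2 differed by 0.42 ± 0.30, IFIH1 by 0.38 ± 0.12, XAF1 by 0.14 ± 0.16, IFIT1 by 0.05 ± 0.28 and TRIM22 by -0.14 ± 0.21. The median of the members was 0.43, against 0.02 over all genes. In limma 0 of all genes (0.0%) were called, with 459 genes at an unadjusted p under 0.05. The value for GBP5 was 0.41 without the CCRF-CEM scramble array and 1.19 without that of HPB-ALL.

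Against untransduced cells, shTOX cells differed by 1.82 ± 0.61 for GBP4, 1.20 ± 0.23 for IFIT3 and 1.13 ± 0.28 for IFIT1. HERC5 was at 0.91 ± 0.20, GBP5 at 0.77 ± 0.36, RSAD2 at 0.69 ± 0.18 and IFIT2 at 0.61 ± 0.30. IFIH1 was at 0.49 ± 0.12, XAF1 at 0.00 ± 0.16 and TRIM22 at -0.78 ± 0.21. GBP4 had the largest estimate and the largest standard error. Over all genes limma called 11.8%, 6.18% as higher and 5.64% as lower. Single arrays decided some of these values. Without the CCRF-CEM untransduced array the estimate for IFIT1 was 1.80 and that for GBP4 0.11, and without the HPB-ALL untransduced array IFIT1 was at 0.46 and GBP4 at 3.53.

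Scramble minus untransduced, which holds transduction and selection without a TOX hairpin, gave 1.20 ± 0.71 for GBP4, 1.08 ± 0.32 for IFIT1, 0.74 ± 0.26 for IFIT3, 0.46 ± 0.23 for HERC5 and -0.63 ± 0.24 for TRIM22. The other 5 members lay between -0.14 for XAF1 and 0.22 for RSAD2. In limma 1.06% of all genes were called, with 1565 genes at an unadjusted p under 0.05. All 3 transduced arrays exceeded the untransduced one for 6 members in HPB-ALL (33.6% of all genes), 7 in CCRF-CEM (36.9%) and 5 in both lines, IFIT1, IFIT3, HERC5, RSAD2 and IFIH1 (20.5%). These comparisons share the scramble and untransduced arrays, so a value of 1 of those arrays moves several of them together. GBP4 was at 2.91 without the HPB-ALL untransduced array and at -0.51 without that of CCRF-CEM.

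The difference between the lines was larger in size than the shTOX minus control difference for every member but IFIH1. Averaged over the constructs, HPB-ALL exceeded CCRF-CEM by 4.0 ± 0.25 for IFIT3, 3.44 ± 0.24 for IFIT2, 2.56 ± 0.33 for IFIT1 and 2.12 ± 0.15 for RSAD2. HPB-ALL was lower for XAF1 (-3.27 ± 0.14), GBP4 (-2.87 ± 0.55), GBP5 (-1.66 ± 0.29), HERC5 (-1.04 ± 0.19) and TRIM22 (-0.88 ± 0.22), and IFIH1 was at 0.12 ± 0.11. The IFIT genes were among the fitted genes only through HPB-ALL, and GBP4 and GBP5 only through CCRF-CEM, so differences of this kind had to appear for them. In untransduced cells the gap was smaller for GBP4 and GBP5. GBP4 stood there at 4.18 in HPB-ALL and 4.48 in CCRF-CEM, and GBP5 at 4.42 and 5.20. Over all genes limma called 27.4%, 14.9% as higher and 12.4% as lower in HPB-ALL. All HPB-ALL arrays lay above all CCRF-CEM arrays for the 3 IFIT genes and RSAD2 (14.2% of all genes) and below them for XAF1, TRIM22, GBP4 and GBP5 (12.8%). For HERC5 the highest HPB-ALL value, 8.30, exceeded the untransduced CCRF-CEM value of 7.95, so the lines overlapped. No fold is given where 1 line was dim.

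Whether the shTOX difference itself depended on the line was estimated as HPB-ALL minus CCRF-CEM. It was -1.96 ± 0.99 for GBP4, -1.47 ± 0.37 for GBP5, 0.97 ± 0.62 for IFIT1, 0.79 ± 0.45 for IFIT3 and 0.64 ± 0.47 for IFIT2. Each of these genes was below the filter level on all arrays of 1 line and was fitted only through the other. Little difference can show at a dim level, so nothing is read from these estimates. Among the other members it was 0.56 ± 0.26 for RSAD2, 0.44 ± 0.24 for XAF1 and -0.29 ± 0.40 for HERC5. IFIH1 was at 0.00 ± 0.22 and TRIM22 at -0.00 ± 0.47. In limma 0 of all genes (0.0%) were called, with 410 genes at an unadjusted p under 0.05. GBP4 was at -3.35 without the CCRF-CEM scramble array and at -0.37 without both untransduced arrays.

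Centred within each line, the mean of the 10 members was 0.14, 0.37, -0.14 and -0.37 in HPB-ALL for shTOX-1, shTOX-2, scramble and untransduced cells, and 0.36, 0.19, -0.07 and -0.47 in CCRF-CEM. In this mean the shTOX arrays were the highest and the untransduced array the lowest in both lines. The hairpins changed order between the lines in the mean, but not in every summary. In CCRF-CEM the median member difference from untransduced cells was 0.46 with shTOX-1 and 0.55 with shTOX-2. From scramble cells it was 0.32 and 0.27. GBP4 and GBP5 had the widest spread of the members in CCRF-CEM and weigh most on the mean there. HERC5 followed the mean of the other 9 members most closely over the 8 arrays (Pearson r = 0.93), before IFIT3 (0.84), IFIH1 (0.83) and RSAD2 (0.72), while XAF1 (-0.10) and TRIM22 (-0.70) did not follow it. Outside the members, the genes of the 8920 others whose centred values were most like this mean were HPF1 (r = 0.988), RIDA (0.984), BUD23 (0.980), RPIA (0.979), HOXA10-AS (0.979), FBXW9 (0.979), IFRD1 (0.978), AFG3L2 (0.976), JOSD2 (0.973) and NDUFB2-AS1 (0.973). Genes of the interferon pathway outside the members were spread over this ranking, from ISG15 at 39th (0.953) to TRIM5 at 8917th (-0.983). The 8 arrays share 2 lines and 4 constructs, so these values describe and do not test a likeness.

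Other genes of the interferon pathway were read from lists of ligands, receptors and signalling genes, sensors, antiviral genes and interferon gamma targets. Of 150 genes listed, 74 had a symbol on the array and 63 were tested. None of the 21 interferon ligands, and neither STAT2 nor MX1, was found under its symbol in the annotation used here, and they were not analysed. The 32 tested antiviral genes outside the members had a median shTOX minus control difference of 0.04, with 18 positive, close to the 0.03 of all genes. Their median was 0.03 against scramble and 0.04 against untransduced cells. Of the 63 genes, 0 were called in limma for shTOX against both controls or against scramble. The sensor RIGI, related to IFIH1, was higher in both shTOX arrays than in both controls in each line, as were 6.36% of all genes. It stood at 7.75, 8.09, 7.47 and 7.46 in HPB-ALL and 7.84, 7.97, 7.69 and 7.65 in CCRF-CEM, with 0.34 ± 0.12 (adjusted p = 0.301 in limma). DHX58, another relative of IFIH1, was not. Its shTOX arrays were below both controls in HPB-ALL, by a difference of -0.03, and overlapped them in CCRF-CEM, with 0.08 ± 0.18 across the lines (adjusted p = 0.863 in limma).

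Against untransduced cells 8 of the 63 were called in limma (12.7%, beside 11.8% of all genes), 3 higher and 5 lower in shTOX cells. TBK1, the kinase that activates interferon regulatory factors, rose by 1.14 ± 0.17 (adjusted p = 0.00694), with 7.83, 7.60, 7.10 and 6.84 in HPB-ALL and 7.0, 6.87, 6.56 and 5.53 in CCRF-CEM. DDX60, an antiviral helicase, rose by 1.07 ± 0.16 (adjusted p = 0.00651), and it was also the 1 gene of the 63 called between scramble and untransduced cells, at 1.10 ± 0.18 (adjusted p = 0.0343). That second call of DDX60 was lost when any of 6 single arrays was left out, with adjusted p between 0.0502 and 0.23 and estimates between 1.06 and 1.15. LAP3, an aminopeptidase, rose by 0.61 ± 0.16 (adjusted p = 0.0386). The signalling inhibitor SOCS1 fell, with a difference of -1.10 ± 0.27 (adjusted p = 0.0309), as did IRF9, the DNA-binding partner of STAT2, at -0.61 ± 0.15 (adjusted p = 0.0324). TLR9, a DNA sensor, at -0.80 ± 0.14 (adjusted p = 0.0101), IFITM3, which blocks viral entry, at -0.75 ± 0.19 (adjusted p = 0.0325), and TRIM5, a restriction factor, at -0.56 ± 0.13 (adjusted p = 0.0245), fell too. Other single arrays ended some of these calls too, and all 8 were lost without the CCRF-CEM untransduced array, with adjusted p between 0.0613 for IFITM3 and 0.357 for LAP3 and IRF9. Without that array DDX60 was at 1.02, TLR9 at -0.76, TRIM5 at -0.55 and TBK1 at 0.83, and IFITM3 was further from 0, at -1.11. SOCS1, at -0.62, and IRF9, at -0.37, were closest to 0 relative to their estimates with all arrays, and LAP3 was at 0.42. Without the HPB-ALL untransduced array IFITM3 was at -0.39 (adjusted p = 0.309). IFITM3 also missed the threshold after quantile normalisation (adjusted p = 0.0651) and LAP3 without the filter (adjusted p = 0.0526). ISG15, which HERC5 attaches to proteins, was at 0.30 ± 0.12 (adjusted p = 0.129) and IRF7, which drives interferon transcription, at -0.06 ± 0.15 (adjusted p = 0.817). Scramble cells, without a TOX hairpin, differed from untransduced cells in the same direction for each called gene. Both differences subtract the same untransduced arrays, and the genes were picked by their shTOX minus untransduced difference. A shared direction was therefore favoured, and nothing is read from it. Besides DDX60, that difference was -1.11 for SOCS1, -0.59 for TLR9, -0.55 for IFITM3 and -0.47 for IRF9. It was -0.33 for TRIM5, 0.65 for TBK1 and 0.47 for LAP3. For SOCS1, shTOX minus scramble was 0.01.

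**Figure D3:**
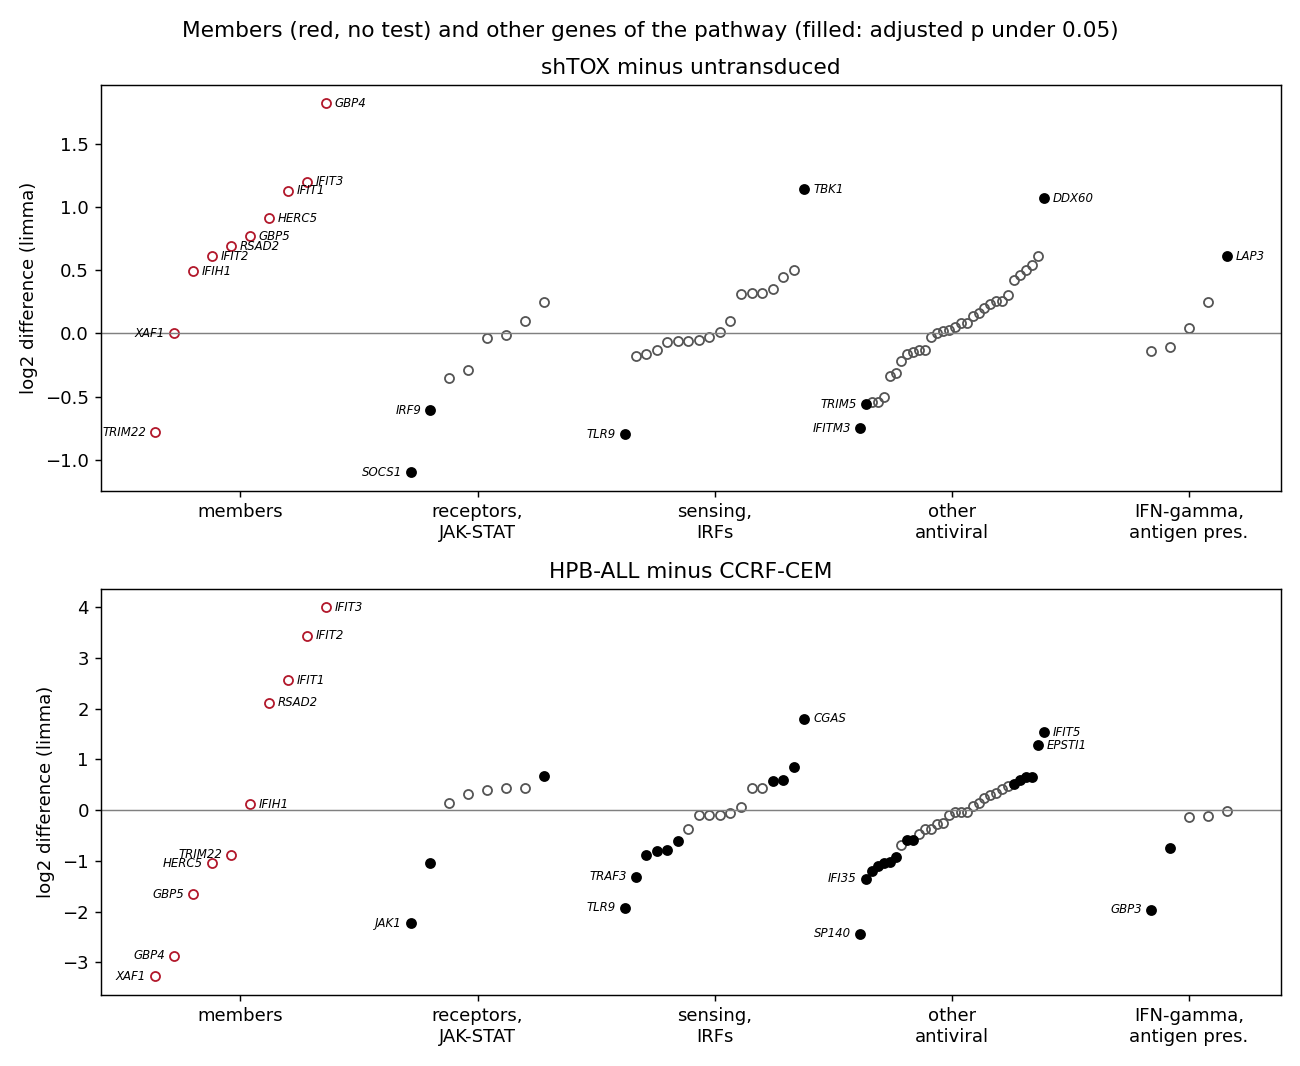
Limma log2 difference (vertical axis) of shTOX minus untransduced cells (upper panel) and HPB-ALL minus CCRF-CEM (lower panel) for the 10 members (red, named, with no test) and the tested genes of 4 lists of the pathway, each ordered from low to high; filled points had an adjusted p under 0.05. The members spread from -0.78 to 1.82 in the upper panel, and the 32 other antiviral genes from -0.75 (IFITM3) to 1.07 (DDX60) around a median of 0.04.

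Between the lines 30 of the 63 pathway genes were called (47.6%, beside 27.4% of all genes), 11 higher and 19 lower in HPB-ALL. The lists were chosen with earlier results known, and some of the genes were tested only through 1 line, as given below. Nothing is therefore read from this share. Of 10 tested genes of the IFIT, GBP, HERC, TRIM and RIG-I-like receptor families outside the members, 5 were called. IFIT5, next to IFIT1 on chromosome 10, was higher in HPB-ALL by 1.54 ± 0.16 (adjusted p = 5.12e-05), in the direction of the IFIT members. GBP3 was lower at -1.96 ± 0.12 (adjusted p = 1.78e-06). It was below the filter level on all 4 HPB-ALL arrays and was tested only through CCRF-CEM. A difference in that direction therefore had to appear, and nothing is read from its p or from its likeness to GBP4 and GBP5. HERC6, next to HERC5 on chromosome 4, was higher in HPB-ALL by 0.65 ± 0.19 (adjusted p = 0.0275), where HERC5 was lower. HERC6 lost its call in 6 of the 14 alternatives, with 0.42 without both untransduced arrays (adjusted p = 0.0996). TRIM21 was higher in HPB-ALL by 0.51 ± 0.11 (adjusted p = 0.00751), where TRIM22 was lower. DHX58, a relative of the sensor IFIH1, was lower at -0.89 ± 0.18 (adjusted p = 0.00498). The other 5, RIGI, TRIM5, TRIM14, TRIM25 and TRIM38, lay between -0.46 and 0.30 and missed the threshold. JAK1, the kinase shared by the interferon receptors, was lower in HPB-ALL at -2.23 ± 0.15 (adjusted p = 2.47e-06), with 7.57, 7.72, 7.85 and 8.23 in HPB-ALL against 10.23, 9.90, 9.97 and 10.17 in CCRF-CEM. The DNA sensor CGAS was higher in HPB-ALL at 1.80 ± 0.16 (adjusted p = 1.68e-05). The nuclear body protein SP140, at -2.43 ± 0.19 (adjusted p = 6.76e-06), and IFI35, at -1.35 ± 0.13 (adjusted p = 2.86e-05), were lower in HPB-ALL. SP140, like GBP3, was below the filter level on all 4 HPB-ALL arrays and was tested only through CCRF-CEM, so its difference had to appear too. The same held for IRF7, called lower in HPB-ALL at -0.80 ± 0.12. IRF5 was below the level on all 4 CCRF-CEM arrays, so its call as higher in HPB-ALL, at 0.57 ± 0.14, had to appear in that direction.

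Markers of other cells were read beside the members. Of the 7 measured T cell markers, 5 were above the filter level in all HPB-ALL arrays, CD2 and CD1A being below it, and 7 in all CCRF-CEM arrays. The listed markers of plasmacytoid dendritic cells were not measured, so those cells were not assessed. The mean log2 level of the 4 measured myeloid markers, CD14, LYZ, CSF1R and MPO, was read in HPB-ALL. It was 4.48, 5.34, 5.07 and 4.34 with shTOX-1, shTOX-2, scramble and no transduction. Like IFIT1, IFIT2 and IFIT3 in that line, this mean was highest with shTOX-2 and lowest in untransduced cells. Unlike them, it was higher with scramble than with shTOX-1. In CCRF-CEM it was 4.38, 4.36, 4.05 and 4.13. MPO, a granule enzyme, had that order in HPB-ALL at 5.10, 7.94, 7.03 and 4.83, as did LYZ (lysozyme) at 4.67, 5.25, 4.86 and 4.40. CSF1R, a growth factor receptor of macrophages, did not, at 4.39, 4.49, 4.86 and 4.67. Nor did the monocyte marker CD14, at 3.74, 3.66, 3.53 and 3.46. CSF1R and CD14 stayed below the filter level on all 8 arrays. LYZ was below it on 3 HPB-ALL arrays and all 4 CCRF-CEM arrays, and MPO on 2 and 3. The mean of the T cell markers was 6.36, 6.12, 6.66 and 6.75 in HPB-ALL and 8.72, 8.28, 8.66 and 9.41 in CCRF-CEM. This mean was lowest with shTOX-2 and highest in untransduced cells. Of the single markers, CD247, CD7, LCK and PTCRA had that order in HPB-ALL, and CD7, LCK and CD1A in CCRF-CEM. The others did not. PTCRA stood at 9.07, 8.64, 7.84 and 11.15 in CCRF-CEM, and CD1A at 4.82, 4.14, 4.01 and 3.66 in HPB-ALL. The means of the other lists ranged from 4.58 to 4.95 for B cells, from 5.38 to 5.89 for NK cells and from 4.95 to 5.37 for fibroblasts and epithelial cells. Some of these markers were above the filter level on all arrays of a line. Of 4 NK markers these were NKG7 and NCAM1 in HPB-ALL and NKG7 in CCRF-CEM. NKG7 reached 7.98 in HPB-ALL and 8.99 in CCRF-CEM. KRT8 and KRT18 were above it in both lines, and the B cell marker PAX5 in CCRF-CEM. The part of such cells in the values of the members was not tested.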

How the data were processed

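Total RNA of the 8 cell samples was hybridised to Affymetrix arrays after biotin labelling with the GeneChip WT Plus protocol, per the labels' protocols. The values as deposited by the authors were taken as log2 intensity from their range, with 1 value for a probe set on an array. The background correction, summarisation, normalisation and software of the authors were not given in the sources used here. Array medians lay between 4.62 and 4.71, and values so aligned cannot show a global shift. Precision is limited by how few arrays there are.

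Of 53617 probe sets, 16098 carried 1 gene symbol, 0 several and 37519 none. They stood for 14884 genes. Where a gene had several probe sets (779 genes), the brightest on average was used. The filter kept the 8930 genes whose mean reached the 40th percentile, log2 5.18. Differences were fitted with limma 3.58.1 in R 4.3.3 on all 8 arrays, with line as a term and Benjamini-Hochberg adjustment over all tested genes, and the code was tested on simulated data. Each p reflects the spread among these arrays alone, which may be technical.

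The members and the lists of pathway genes and markers were chosen with earlier results of these data known. The text names all members; from each pathway list and comparison up to 4 called genes by size or otherwise the 2 of smallest p, given where they add to the account; STAT2, IRF9, IRF7, MX1, ISG15 and IFI6 where measured (a further gene of this rule is not reported here); and the 10 genes most like the members. RIGI is named as the relative of IFIH1, and IRF5 for its level below the filter in CCRF-CEM. HERC6, TRIM21, DHX58 and the other relatives of members were added after their values were seen. Promoter sequences are from RefSeq (GRCh38.p14). Probes of related genes such as IFIT1 and IFIT1B, or GBP4 and GBP7, may share targets, which was not tested. Alternatives were no filter, quantile normalisation, an intensity trend, the mean of probe sets, the construct as a block, each array left out and both untransduced arrays left out. The same hairpin deviated from the shTOX mean of its line with r = 0.23 across genes between the lines; with only a pair of hairpins this does not show pairing.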

Additional observations from a re-analysis of the deposited data

Results flagged for a closer look

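XAF1 drew attention because both shTOX arrays lay above both control arrays in HPB-ALL, with a difference of 0.29, and below both in CCRF-CEM, with a difference of -0.15. The gap between these differences, HPB-ALL minus CCRF-CEM, was 0.44 ± 0.24. XAF1 is a member chosen with these values known, so no test of the gap is given. It was 0.27 without the HPB-ALL shTOX-1 array and 0.61 without the HPB-ALL shTOX-2 array.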

How the results depend on the processing

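For HPB-ALL against CCRF-CEM and for shTOX against scramble, the number of genes called stayed within 1.5 times of 2443 and at 0 under the alternatives. For shTOX against both controls it was 0 and became 16 with the construct as a replicate block, and 0 to 4 with an array left out. For shTOX against untransduced cells it was 1056 and ran from 25 (without the CCRF-CEM untransduced array) to 1080 with an array left out. For scramble against untransduced cells it was 95, and became 182 with an intensity trend, 9 with the replicate block and 3 to 90 with an array left out. For the difference between the lines' shTOX differences it was 0, and 0 to 8 with an array left out. The median of the other antiviral genes, with an array left out, ran from -0.05 to 0.09 for shTOX against scramble, -0.06 to 0.15 against untransduced, -0.16 to 0.07 for scramble against untransduced and -0.03 to 0.07 for the difference between lines, where it was -0.06 after quantile normalisation. Quantile normalisation moved the median of all genes in that last comparison to -0.081, against 0.024. The cause was not tested.

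Of 820 member differences under the alternatives, 45 moved by 1 SD or more. Some member differences changed sign, among them GBP4 for scramble against untransduced cells (-0.51 without the CCRF-CEM untransduced array, against 1.20 with all arrays). Without the HPB-ALL untransduced array IFIT2 was at -0.04 for shTOX against untransduced cells, and without the HPB-ALL scramble array XAF1 was at -0.03 for shTOX against scramble. Among pathway genes, SOCS1 for shTOX against controls was 0.01 without both untransduced arrays, against -0.54 with them, and the difference between the lines' shTOX differences of B2M was -0.04 with the mean of its probe sets, against 0.17 with its brightest. The replicate block ended no call of a pathway gene named, although the calls of IRF5 and IRF7 between the lines were not followed under the alternatives. Comparisons with untransduced cells could not be fitted without both untransduced arrays.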
